A study of Mus musculus with 35 samples.

Results

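Collagens are the structural proteins of the extracellular matrix. They are described here as 41 genes, those whose symbol is Col, a number, a and a number, out of 18930 genes listed in any of 3 RNA-seq experiments on mouse neuroectoderm cells, and 38 of the 41 were listed in all 3. The day 3 experiment listed 39 of them among 17948 genes, the Dnmt1 experiment had 40 among 18091 and the Tet3-CD experiment had 40 among 17705. Col19a1 was listed only in the Tet3-CD experiment, Col6a5 was not listed on day 3 and Col10a1 was not listed in the Tet3-CD experiment.

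The cells were v6.5 embryonic stem cells (ESCs), a male line of mixed 129/C57BL/6 background, differentiated towards neuroectoderm by withdrawal of LIF, the cytokine that keeps them pluripotent, and 1 µM retinoic acid (RA), for 72 hours in the day 3 and Dnmt1 experiments. All lines had been grown on feeder cells before they were plated on gelatin. Tet3+/+ cells are wildtype, Tet3m/m cells (labelled mutant) carry substitutions in the iron-binding site that leave TET3, a 5-methylcytosine dioxygenase, without catalytic activity, and Tet3-/- cells (labelled knockout) lack exon 4. The day 3 experiment holds 3 Tet3+/+, 3 Tet3m/m and 2 Tet3-/- samples, each from a separate clone. In the Dnmt1 experiment, cells of each genotype received either empty vector or a plasmid for myc-tagged Dnmt1, the maintenance DNA methyltransferase, driven by the CAG promoter, on the day differentiation began, and were then selected with blasticidin, with 2 samples per genotype and vector. In the Tet3-CD experiment, empty vector or the catalytic domain of TET3 with an HA tag, called Tet3-CD, was transfected on day 2 of differentiation and RNA was taken later than 72 hours, with 1 sample per genotype and vector, so its values are given with no test. Whether paired samples of the Dnmt1 experiment came from separate clones is not given in the sources used here, so the p-values may measure only technical spread.

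A collagen molecule is a triple helix of 3 chains, and each gene encodes 1 chain. Fibrillar collagens (types I, II, III, V, XI, XXIV and XXVII) form the cable-like fibrils of connective tissue and cartilage. Type IV collagen forms the sheet of the basement membrane, the first matrix of the embryo, and is made in large amounts by parietal endoderm. FACIT collagens sit on the surface of fibrils, type VI forms beaded filaments, types VIII and X form hexagonal networks, and types XIII, XVII, XXIII and XXV span the cell membrane. Neuroectoderm is an epithelium that rests on a basement membrane, whereas fibrillar collagens are chiefly products of mesenchymal cells.

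Values are normalised counts, that is, reads per gene divided by a size factor of the sample, and replicates are given in the order of their labels. Recovered reads ranged from 36594650 to 47710548 per sample on day 3, from 31155842 to 50845950 in the Dnmt1 experiment and from 33475041 to 37707719 in the Tet3-CD experiment. Tet3 itself was at 4577 to 5020 in Tet3+/+, 1945 to 2666 in Tet3m/m and 1796 to 2329 in Tet3-/- on day 3, and a whole-gene count cannot show the loss of 1 exon. Dnmt1 was at 11285 to 17554 normalised counts with empty vector and at 20245 to 39854 with Dnmt1. The cells expressed the neuroectoderm markers on the list, 8 of 8 of which were in the table, with a summed level of 14410 to 27513 on day 3. They also expressed all 10 parietal endoderm markers on the list, with a sum of 56176 to 93762 on day 3. The parietal and visceral endoderm sums differed between genotypes, and their values stand beside the results they move with. In bulk RNA, fewer cells of a type and less RNA per cell cannot be told apart.

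Basement membrane chains dominated the collagen message at every genotype. Per kilobase of transcript, day 3 means over all 8 samples were led by Col18a1 at 13519, Col4a1 at 4777, Col2a1 at 3606, Col4a2 at 3424, Col1a1 at 2076, Col3a1 at 1229 and Col5a1 at 1147 normalised counts per kb. Col18a1 encodes the multiplexin chain whose C-terminal end is released as endostatin. Across the Dnmt1 and Tet3-CD experiments Col4a1 stood first instead, at 13211 and 22048 normalised counts per kb, against 12598 and 7897 for Col18a1. On the count scale, 13 members had a mean of at least 1000 on day 3 and 10 had a mean under 100.

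The division between fibrillar and basement membrane chains differed between genotypes, in an order that was not the same in all experiments. As a share of the summed per-kb level of all collagen genes, fibrillar chains made up 27.1% to 32.9% in the Tet3+/+ samples of day 3, 18.2% to 27.2% in Tet3m/m and 34.0% to 38.5% in Tet3-/-. With empty vector in the Dnmt1 experiment the fibrillar share was 16.7% to 17.3% in Tet3+/+, 3.63% to 3.96% in Tet3m/m and 34.8% to 35.4% in Tet3-/-. The basement membrane share was the mirror of this, at 77.3% to 78.4%, 91.9% to 92.4% and 57.5% to 58.0% in the same order. The 3 genotypes thus did not overlap with empty vector, while on day 3 the Tet3+/+ and Tet3m/m fibrillar ranges overlapped slightly. In the Tet3-CD experiment with empty vector, where each group is 1 sample, Tet3+/+ had the lowest fibrillar share (8.77%) and Tet3m/m the highest (22%), against the order above. The summed fibrillar level per kb there was nevertheless highest in Tet3+/+, at 8553, against 8087 in Tet3m/m and 6484 in Tet3-/-. The basement membrane sums of these samples were 86728, 26737 and 30857. These classes hold most of the collagen sum, so their shares mirror each other by construction. The shares are a description and were not tested.

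**Figure D1:**
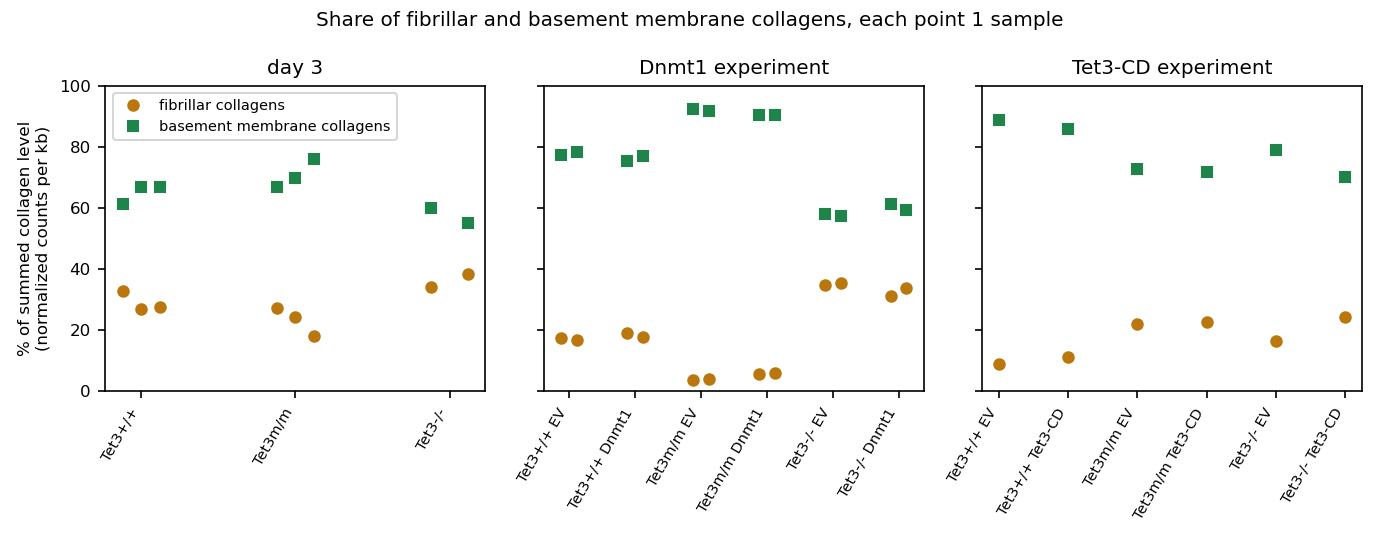
Share of the summed per-kb level of all collagen genes held by fibrillar chains (circles) and by basement membrane chains (squares), in percent from 0 to 100, with 1 point of each kind per sample, by genotype and vector (EV, empty vector) in the 3 experiments. The fibrillar share is lowest in Tet3m/m of the Dnmt1 experiment (3.63% to 3.96% with empty vector) and higher in Tet3-/- (34.8% to 35.4%), and the basement membrane share mirrors it.

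A gene was called when its adjusted p was under 0.05 and its fold change above 1.5. On day 3, 9 of 39 collagen genes were called in Tet3m/m against Tet3+/+, 5 higher and 4 lower, where 10.2% of all genes tested were called (5.06% higher, 5.19% lower). None was called in Tet3-/- against Tet3+/+ by limma, where 0.642% of all genes were called (0.458% higher, 0.184% lower). There, 11 of 39 had an unadjusted p under 0.05, against 20.1% of all genes, and DESeq2 called 5. The share of all genes that DESeq2 called is not given here, so its 5 cannot be set beside a background. Between Tet3-/- and Tet3m/m, 12 of 39 were called, 9 higher and 3 lower in Tet3-/-, against 9.73% of all genes (5.41% higher, 4.33% lower). The median log2 fold change of the collagen genes was 0.10 in Tet3m/m and 0.26 in Tet3-/- against Tet3+/+, and that of all genes tested was 0.00 and -0.01.

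With 8 samples, several of these counts rested on single libraries. The refit counts below stand without the share of all genes called in the same refit. Without Tet3+/+ replicate 1 or 2, 3 collagen genes were called in Tet3m/m, and without Tet3m/m replicate 2, 5 were. Of the 9, Col4a5 alone was called under every alternative tried. Tet3-/- against Tet3+/+ gave 5 calls without Tet3m/m replicate 1 and 6 without Tet3m/m replicate 3. For Tet3-/- against Tet3m/m, 7 remained without Tet3-/- replicate 2, and Col12a1, Col1a1, Col3a1 and Col4a5 were called under every alternative.

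With empty vector in the Dnmt1 experiment, far more genes passed. Tet3m/m differed from Tet3+/+ at 22 of 40 collagen genes, 8 higher and 14 lower, where 21.2% of all genes tested were called (10.3% higher, 10.9% lower). Tet3-/- differed from Tet3+/+ at 19 of 40, 11 higher and 8 lower, where 24.9% of all genes were called (11.0% higher, 13.9% lower). Between Tet3-/- and Tet3m/m, 28 of 40 were called, 17 higher and 11 lower in Tet3-/-, against 39.6% of all genes (18.9% higher, 20.6% lower). By class, 7 of 11 fibrillar chains fell and 1 rose in Tet3m/m, and 5 rose and none fell in Tet3-/-. Basement membrane genes split within the class, with 3 of 9 up and 2 down in Tet3m/m and 3 up and 2 down in Tet3-/-. Of the 22, 19 and 28 calls, 20, 14 and 26 held under every alternative. The median log2 fold change of the collagen genes was -0.14 in Tet3m/m and 0.15 in Tet3-/-, with 0.01 and 0.00 over all genes.

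**Figure D2:**
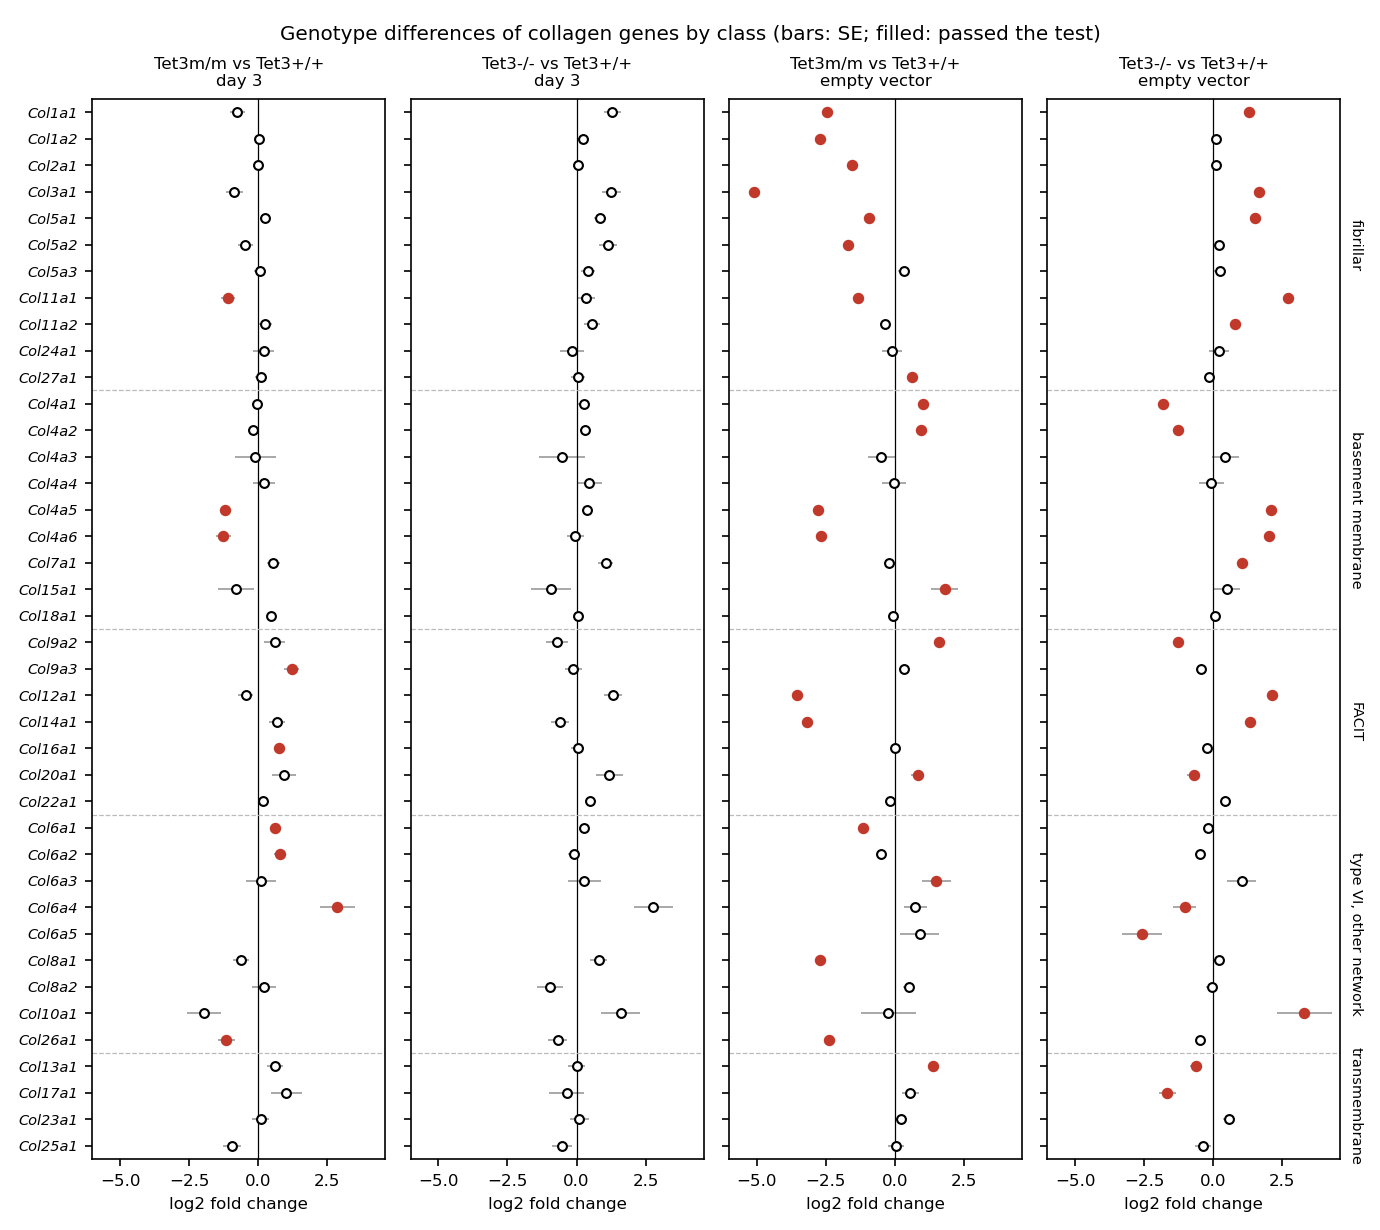
Log2 fold change of each collagen gene (rows, grouped by class) in Tet3m/m and in Tet3-/- against Tet3+/+, on day 3 and with empty vector (columns), with bars of 1 SE and called genes filled. With empty vector 7 of 11 fibrillar chains were called below 0 in Tet3m/m and 5 above 0 in Tet3-/-, and the longest distance from 0 in the panels is that of Col3a1 in Tet3m/m at -5.11.

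Col3a1 is the single gene of type III collagen, the fibril of elastic tissues and of early mesenchyme. Col3a1 was at 7479, 3957 and 6092 normalised counts in Tet3+/+ on day 3, at 5139.8, 2953 and 1969 in Tet3m/m and at 14242 and 12878 in Tet3-/-. Col3a1 with empty vector was at 2906 and 2696 normalised counts in Tet3+/+, at 66.7 and 96.4 in Tet3m/m and at 8878 and 8591 in Tet3-/-. Col3a1 with Dnmt1 was at 4129 and 3569 normalised counts in Tet3+/+, at 238 and 282 in Tet3m/m and at 8802 and 11312 in Tet3-/-. With empty vector the 3 genotypes were well apart, and on day 3 Tet3-/- lay above both other groups while Tet3+/+ and Tet3m/m overlapped. Col3a1 fell in Tet3m/m with empty vector (log2 fold change -5.11 ± 0.13, adjusted p = 5.97e-18) and rose in Tet3-/- (log2 fold change 1.64 ± 0.13, adjusted p = 7.91e-10). It was also higher in Tet3-/- than in Tet3m/m on day 3 (log2 fold change 2.13 ± 0.34, adjusted p = 0.00369), but its day 3 difference between Tet3m/m and Tet3+/+ did not pass (log2 fold change -0.86 ± 0.31, adjusted p = 0.0893).

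Type I collagen, the main fibril of bone, skin and tendon, is built from 2 chains of Col1a1 and 1 of Col1a2. Col1a1 was at 13817, 7293 and 9844 normalised counts in Tet3+/+ on day 3, at 8691, 5729.6 and 4049 in Tet3m/m and at 21860.0 and 27189 in Tet3-/-. Col1a1 with empty vector was at 8321 and 7499 normalised counts in Tet3+/+, at 1346 and 1498 in Tet3m/m and at 19077 and 19225 in Tet3-/-. Col1a1 with Dnmt1 was at 8953 and 8414 normalised counts in Tet3+/+, at 2018 and 2145 in Tet3m/m and at 20324 and 28182 in Tet3-/-. Col1a1 fell in Tet3m/m with empty vector (log2 fold change -2.48 ± 0.09, adjusted p = 4.35e-15) and rose in Tet3-/- (log2 fold change 1.28 ± 0.09, adjusted p = 3.01e-10), and all 3 genotypes were apart there. On day 3 it was higher in Tet3-/- than in Tet3m/m (log2 fold change 2.06 ± 0.30, adjusted p = 0.00243), and the 2 Tet3-/- samples lay above all others of day 3. The Tet3-CD experiment did not give this order. With empty vector there, with 1 sample per group, Col1a1 was at 15500 in Tet3+/+, 16541 in Tet3m/m and 11601 in Tet3-/-.

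Col1a2 was at 5906, 5093 and 4003 normalised counts in Tet3+/+ on day 3, at 5997, 5387 and 3807 in Tet3m/m and at 5326 and 6422 in Tet3-/-. Col1a2 with empty vector was at 7343 and 6748 normalised counts in Tet3+/+, at 1085 and 1076 in Tet3m/m and at 7535 and 7663 in Tet3-/-. Col1a2 with Dnmt1 was at 5026 and 5052 normalised counts in Tet3+/+, at 1704 and 1691 in Tet3m/m and at 4027 and 4015 in Tet3-/-. Col1a2 fell in Tet3m/m with empty vector (log2 fold change -2.70 ± 0.05, adjusted p = 8.72e-20), where the 2 Tet3m/m samples lay far below the rest. It did not differ detectably in Tet3-/- against Tet3+/+ there (log2 fold change 0.11 ± 0.05, adjusted p = 0.0774), nor in either genotype against Tet3+/+ on day 3 (0.01 and 0.24). The 2 chains of type I collagen therefore did not move in step. Per kb, Col1a1 over Col1a2 was 1.29 to 2.22 in Tet3+/+, 0.959 to 1.31 in Tet3m/m and 3.70 to 3.82 in Tet3-/- on day 3, and 1.00 to 1.02, 1.12 to 1.26 and 2.26 to 2.28 with empty vector. Over all tested genes of chromosome 6, where Col1a2 lies, the median log2 fold change in Tet3m/m against Tet3+/+ with empty vector was -0.25, and over the 31 genes nearest to Col1a2 it was -0.01.

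Promoters are shown for Col3a1 and Col1a2 because these fibrillar genes fell in Tet3m/m and answered Dnmt1 there, and because their promoters differ in base composition. Sequences are those of RefSeq on GRCm38.p6, which may not be the build the reads were aligned to (mm39 or mm10), and run 5′ to 3′ on the gene's strand from 250 bases before to 50 after the annotated start. Capitals mark CCAAT and GGGCGG (the core of a GC box) on either strand. Col3a1 (chr1:45311288-45311587, plus strand) holds no CpG and 1 TATAAA, and Col1a2 (chr6:4505368-4505667, plus strand) holds 13 CpG, 2 CCAAT and 2 GGGCGG.
Col3a1: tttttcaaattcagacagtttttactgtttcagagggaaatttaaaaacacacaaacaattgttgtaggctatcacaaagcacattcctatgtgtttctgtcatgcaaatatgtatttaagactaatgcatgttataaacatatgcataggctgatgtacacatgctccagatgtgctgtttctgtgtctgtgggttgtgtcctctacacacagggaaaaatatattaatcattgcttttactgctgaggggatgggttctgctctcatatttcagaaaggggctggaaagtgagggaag
Col1a2: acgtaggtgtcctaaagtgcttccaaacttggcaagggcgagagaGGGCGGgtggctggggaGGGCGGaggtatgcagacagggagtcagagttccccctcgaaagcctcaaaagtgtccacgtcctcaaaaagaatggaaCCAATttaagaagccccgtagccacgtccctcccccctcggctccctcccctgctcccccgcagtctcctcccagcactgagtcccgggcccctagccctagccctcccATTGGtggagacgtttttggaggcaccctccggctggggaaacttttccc

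A promoter was at hand for 32 of the 41 members, as 34 windows of 300 bases. CCAAT on either strand was in 12 windows (35.3%), against 37.4% of 32851 promoters, GGGCGG in 22 (64.7%, against 35.7%) and TATAAA in 5 (14.7%, against 13.6%). Each window was searched for each motif on both strands separately, and a match is only a description of the letters.

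The other fibrillar chains with calls were cartilage and minor fibrillar collagens. Col2a1 encodes type II collagen, the main cartilage fibril, which neural tissue of the embryo also expresses. Col2a1 was at 18505, 16851 and 19208 normalised counts in Tet3+/+ on day 3, at 16608, 20312 and 17842 in Tet3m/m and at 20058 and 17859 in Tet3-/-. Col2a1 with empty vector was at 15604 and 15115 normalised counts in Tet3+/+, at 5334 and 5230.2 in Tet3m/m and at 16210.0 and 16680.4 in Tet3-/-. Col2a1 with Dnmt1 was at 16404 and 15959 normalised counts in Tet3+/+, at 7824 and 8095 in Tet3m/m and at 12553 and 13152 in Tet3-/-. The 4 Tet3m/m samples of the Dnmt1 experiment lay below all others, and with empty vector Col2a1 fell (log2 fold change -1.54 ± 0.04, adjusted p = 2.84e-17). Its day 3 groups overlapped throughout.

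Col11a1 and Col11a2 encode chains of type XI collagen, which nucleates cartilage fibrils, and Col5a1 and Col5a2 encode type V, which does so for type I. Col11a1 was at 8457, 6974 and 5160.4 normalised counts in Tet3+/+ on day 3, at 4180.0, 3296 and 2306 in Tet3m/m and at 6361 and 11639 in Tet3-/-. Col11a1 in the Dnmt1 experiment was at 2215 and 2217 normalised counts with empty vector and 2376 and 2209 with Dnmt1 in Tet3+/+, at 906 and 853 with empty vector and 795 and 846 with Dnmt1 in Tet3m/m, and at 14069.7 and 15026 with empty vector and 10308 and 10371 with Dnmt1 in Tet3-/-. Col11a1 was lowest in Tet3m/m and highest in Tet3-/- in the Dnmt1 experiment, falling in Tet3m/m (log2 fold change -1.33 ± 0.06, adjusted p = 4.78e-14) and rising in Tet3-/- (log2 fold change 2.71 ± 0.06, adjusted p = 1.18e-18). It also fell in Tet3m/m on day 3 (log2 fold change -1.09 ± 0.26, adjusted p = 0.0202) and was higher in Tet3-/- than in Tet3m/m (log2 fold change 1.44 ± 0.29, adjusted p = 0.0109). Col11a1 did not pass in Tet3m/m on day 3 without Tet3+/+ replicate 1, Tet3+/+ replicate 2 or Tet3m/m replicate 2 (log2 fold change -1.12 to -0.92, adjusted p from 0.0561 to 0.0842). Col11a1 did not pass for Tet3-/- against Tet3m/m without Tet3-/- replicate 2 (log2 fold change 1.01, adjusted p = 0.0818).

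Col5a1 was at 9254, 6391 and 7072 normalised counts in Tet3+/+ on day 3, at 9672, 9889 and 7376 in Tet3m/m and at 10841 and 16658 in Tet3-/-. Col5a1 in the Dnmt1 experiment was at 5242 and 4881 normalised counts with empty vector and 5949 and 5589.5 with Dnmt1 in Tet3+/+, at 2708 and 2519 with empty vector and 2866 and 2882 with Dnmt1 in Tet3m/m, and at 14681 and 14284 with empty vector and 13631 and 16220.1 with Dnmt1 in Tet3-/-. On day 3 no contrast of Col5a1 passed, but with empty vector it fell in Tet3m/m (log2 fold change -0.95 ± 0.06, adjusted p = 6.65e-11) and rose in Tet3-/- (log2 fold change 1.52 ± 0.06, adjusted p = 4.81e-14) with no overlap. Col5a2 was at 748, 534 and 529.8 normalised counts in Tet3+/+ on day 3, at 625, 482 and 267 in Tet3m/m and at 1569 and 1094 in Tet3-/-. Col5a2 in the Dnmt1 experiment was at 397 and 488 normalised counts with empty vector and 352 and 396 with Dnmt1 in Tet3+/+, at 124 and 143 with empty vector and 142 and 139 with Dnmt1 in Tet3m/m, and at 466 and 546 with empty vector and 669 and 744 with Dnmt1 in Tet3-/-. Col5a2 fell in Tet3m/m with empty vector (log2 fold change -1.71 ± 0.14, adjusted p = 1.52e-09), and on day 3 it was higher in Tet3-/- than in Tet3m/m (log2 fold change 1.60 ± 0.32, adjusted p = 0.00959). Col5a2 did not pass on day 3 without Tet3-/- replicate 1 (log2 fold change 1.34, adjusted p = 0.0766).

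Col11a2 was at 207, 189.6 and 156 normalised counts in Tet3+/+ on day 3, at 155, 275 and 234 in Tet3m/m and at 217 and 329 in Tet3-/-. Col11a2 in the Dnmt1 experiment was at 123 and 157 normalised counts with empty vector and 113 and 109 with Dnmt1 in Tet3+/+, at 115 and 102 with empty vector and 85.8 and 78.0 with Dnmt1 in Tet3m/m, and at 235 and 251 with empty vector and 208 and 248 with Dnmt1 in Tet3-/-. Col11a2 rose in Tet3-/- with empty vector (log2 fold change 0.80 ± 0.19, adjusted p = 0.00146). Col27a1 was at 749.8, 724 and 597 normalised counts in Tet3+/+ on day 3, at 626, 699.8 and 929 in Tet3m/m and at 532 and 957 in Tet3-/-. Col27a1 in the Dnmt1 experiment was at 589 and 677 normalised counts with empty vector and 694 and 789 with Dnmt1 in Tet3+/+, at 1059 and 899.9 with empty vector and 1145 and 1360.1 with Dnmt1 in Tet3m/m, and at 581 and 553 with empty vector and 661 and 488 with Dnmt1 in Tet3-/-. Col27a1, a fibrillar chain of cartilage, was the 1 fibrillar gene that rose in Tet3m/m with empty vector (log2 fold change 0.63 ± 0.13, adjusted p = 0.000302). Col27a1 did not pass the 1.5-fold threshold without EV Tet3+/+ replicate a or EV Tet3m/m replicate 1 (log2 fold change 0.51 to 0.53, adjusted p from 0.0105 to 0.0127). Col5a3 and Col24a1 were called in no comparison, with 51.3 to 233 and 24.2 to 98.3 normalised counts over all samples of the 3 experiments.

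**Figure D3:**
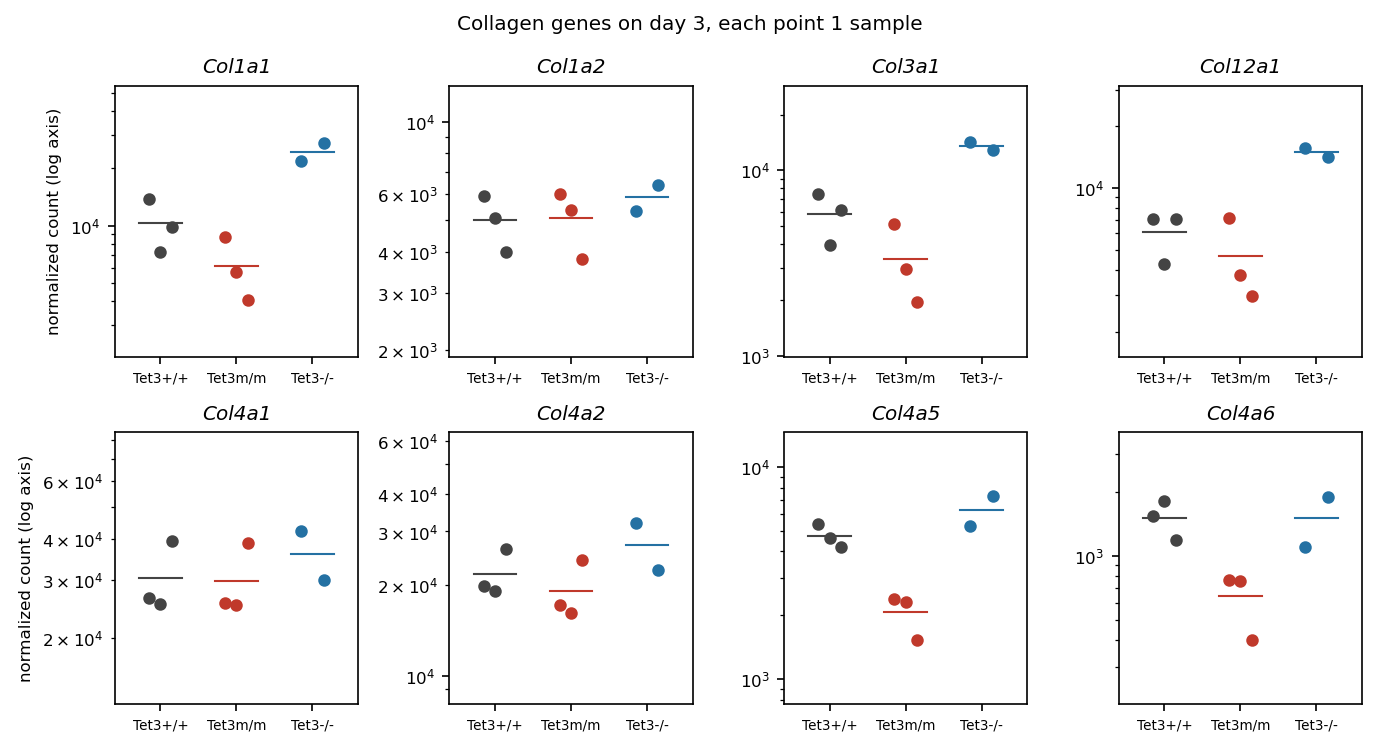
Normalised counts (log axis, its range differing between panels) of 8 collagen genes in each of the 8 day 3 samples, with 1 point per sample and a line at the group mean, by genotype. The 2 Tet3-/- samples lie above all others for Col1a1 and Col3a1, and the 3 Tet3m/m samples lie below all others for Col4a5 and Col4a6.

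The summed level of fibroblast markers moved in the same direction as most fibrillar chains in the Dnmt1 experiment. The 10 of 12 listed markers that the table holds summed to 2447 to 2698 in Tet3+/+, 1623 to 1769 in Tet3m/m and 4359 to 4378 in Tet3-/- with empty vector, and of the 10, 3 rose and 5 fell in Tet3m/m and 5 rose and 1 fell in Tet3-/-. None of the 10 was at 0 in any of these groups, and 1 of them, Col6a3, is itself a collagen gene. On day 3 the same sum was 3276 to 4053, 3462 to 3997 and 4424 to 4559. Of 6 chondrocyte markers 2 rose and 3 fell in Tet3m/m with empty vector, and of 5 early mesoderm markers 1 rose and 1 fell. The part of these cells in the results for the fibrillar genes was not tested.

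FACIT collagens followed the same opposition between genotypes for Col12a1 and Col14a1, which coat type I fibrils. Col12a1 was at 7087, 4242 and 7028 normalised counts in Tet3+/+ on day 3, at 7147, 3788 and 2996 in Tet3m/m and at 15633 and 14164 in Tet3-/-. Col12a1 with empty vector was at 3006 and 3120.4 normalised counts in Tet3+/+, at 241 and 289 in Tet3m/m and at 13171 and 13337 in Tet3-/-. Col12a1 with Dnmt1 was at 4231 and 4062 normalised counts in Tet3+/+, at 564 and 660.1 in Tet3m/m and at 15749.9 and 16679 in Tet3-/-. With empty vector the 2 Tet3m/m samples were far below and the 2 Tet3-/- samples far above Tet3+/+, so that Col12a1 fell in Tet3m/m (log2 fold change -3.53 ± 0.08, adjusted p = 5.72e-19) and rose in Tet3-/- (log2 fold change 2.11 ± 0.08, adjusted p = 3.47e-15). On day 3 Tet3-/- lay above all other samples (against Tet3m/m, log2 fold change 1.78 ± 0.32, adjusted p = 0.00615).

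Col14a1 was at 575, 767 and 872 normalised counts in Tet3+/+ on day 3, at 942, 1219.9 and 1335 in Tet3m/m and at 748 and 306 in Tet3-/-. Col14a1 with empty vector was at 575 and 459 normalised counts in Tet3+/+, at 54.8 and 57.3 in Tet3m/m and at 1307 and 1273 in Tet3-/-. Col14a1 with Dnmt1 was at 1056 and 938 normalised counts in Tet3+/+, at 310.2 and 375 in Tet3m/m and at 681 and 713 in Tet3-/-. Col14a1 did not keep its direction between the experiments. With empty vector it fell in Tet3m/m (log2 fold change -3.17 ± 0.12, adjusted p = 7.58e-15) and rose in Tet3-/- (log2 fold change 1.33 ± 0.12, adjusted p = 1.3e-08), whereas on day 3 it was lower in Tet3-/- than in Tet3m/m (log2 fold change -1.27 ± 0.32, adjusted p = 0.0288). Col14a1 did not pass on day 3 without Tet3m/m replicate 2, Tet3m/m replicate 3 or Tet3-/- replicate 2 (log2 fold change -1.23 to -0.62, adjusted p from 0.0688 to 0.16).

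Col9a2 and Col9a3 encode chains of type IX collagen, found on type II fibrils, and both passed as higher in Tet3m/m than in another genotype. Col9a2 was at 499, 757 and 629.6 normalised counts in Tet3+/+ on day 3, at 501, 968 and 1670.0 in Tet3m/m and at 484 and 298 in Tet3-/-. Col9a2 in the Dnmt1 experiment was at 1267 and 1219 normalised counts with empty vector and 1181 and 1205 with Dnmt1 in Tet3+/+, at 3929.9 and 3648 with empty vector and 3139 and 3135 with Dnmt1 in Tet3m/m, and at 482 and 533 with empty vector and 488 and 378 with Dnmt1 in Tet3-/-. Col9a2 rose in Tet3m/m with empty vector (log2 fold change 1.61 ± 0.09, adjusted p = 4.47e-12) and fell in Tet3-/- (log2 fold change -1.29 ± 0.09, adjusted p = 1.98e-10). Col9a3 was at 134, 164 and 162 normalised counts in Tet3+/+ on day 3, at 308, 337 and 424 in Tet3m/m and at 95.4 and 208 in Tet3-/-. Col9a3 in the Dnmt1 experiment was at 225 and 218 normalised counts with empty vector and 199 and 217 with Dnmt1 in Tet3+/+, at 345 and 227 with empty vector and 252 and 225 with Dnmt1 in Tet3m/m, and at 152 and 175 with empty vector and 158 and 127 with Dnmt1 in Tet3-/-. Col9a3 rose in Tet3m/m on day 3 (log2 fold change 1.2 ± 0.28, adjusted p = 0.0163) and was lower in Tet3-/- than in Tet3m/m both there (log2 fold change -1.32 ± 0.31, adjusted p = 0.0209) and with empty vector (log2 fold change -0.78 ± 0.19, adjusted p = 0.00104). Col9a3 did not pass against Tet3+/+ without Tet3+/+ replicate 1 (log2 fold change 1.11, adjusted p = 0.0657). Col9a3 did not pass for Tet3-/- against Tet3m/m on day 3 without Tet3m/m replicate 2, Tet3m/m replicate 3 or Tet3-/- replicate 1 (log2 fold change -1.35 to -0.76, adjusted p from 0.0576 to 0.126). In a fit of only the compared groups on day 3, Col9a3 (adjusted p = 0.0554), Col14a1 (0.0619), Col4a6 (0.061) and Col6a2 (0.0729) did not pass for that contrast. Col9a3 did not pass for that contrast with empty vector without EV Tet3m/m replicate 1 (log2 fold change -0.47, adjusted p = 0.0516).

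Col16a1 was at 281, 208 and 304 normalised counts in Tet3+/+ on day 3, at 398, 389.5 and 556 in Tet3m/m and at 255 and 282 in Tet3-/-. Col16a1 in the Dnmt1 experiment was at 417 and 311 normalised counts with empty vector and 297 and 313 with Dnmt1 in Tet3+/+, at 446 and 296 with empty vector and 291 and 308 with Dnmt1 in Tet3m/m, and at 326 and 296 with empty vector and 338 and 407 with Dnmt1 in Tet3-/-. Col16a1 rose in Tet3m/m on day 3 (log2 fold change 0.76 ± 0.20, adjusted p = 0.0315) with no overlap. Col16a1 did not pass without Tet3+/+ replicate 1, Tet3+/+ replicate 2, Tet3m/m replicate 2 or Tet3m/m replicate 3 (log2 fold change 0.59 to 0.85, adjusted p from 0.0546 to 0.114). Col20a1 was at 50.1, 47.6 and 19.8 normalised counts in Tet3+/+ on day 3, at 47.1, 79.2 and 89.6 in Tet3m/m and at 61.5 and 114 in Tet3-/-. Col20a1 in the Dnmt1 experiment was at 103 and 97.4 normalised counts with empty vector and 62.8 and 62.5 with Dnmt1 in Tet3+/+, at 182 and 173 with empty vector and 69.7 and 99.6 with Dnmt1 in Tet3m/m, and at 57.6 and 64.5 with empty vector and 69.9 and 71.4 with Dnmt1 in Tet3-/-. Col20a1 rose in Tet3m/m with empty vector (log2 fold change 0.82 ± 0.24, adjusted p = 0.0074) and fell in Tet3-/- (log2 fold change -0.70 ± 0.24, adjusted p = 0.0171). Col20a1 did not pass in Tet3-/- without EV Tet3+/+ replicate a, EV Tet3+/+ replicate b or EV Tet3-/- replicate 1 (log2 fold change -0.74 to -0.62, adjusted p from 0.0521 to 0.0885).

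Type IV genes moved in opposite directions within the class in the Dnmt1 experiment. Their chains are encoded in head-to-head pairs, Col4a1 with Col4a2, Col4a3 with Col4a4 and Col4a5 with Col4a6, and the Col4a1 and Col4a2 chains form the common network of all basement membranes. Col4a1 was at 26428, 25351 and 39419 normalised counts in Tet3+/+ on day 3, at 25449, 25137 and 38919 in Tet3m/m and at 42079.5 and 30022 in Tet3-/-. Col4a1 with empty vector was at 80106 and 82616 normalised counts in Tet3+/+, at 173340.0 and 152989 in Tet3m/m and at 23420.3 and 22489.9 in Tet3-/-. Col4a1 with Dnmt1 was at 78157 and 85536 normalised counts in Tet3+/+, at 143965 and 146789 in Tet3m/m and at 27769 and 31504 in Tet3-/-. With empty vector Col4a1 was highest in Tet3m/m and lowest in Tet3-/-, with no overlap (Tet3m/m against Tet3+/+, log2 fold change 1.00 ± 0.06, adjusted p = 6.5e-12, and Tet3-/- against Tet3+/+, log2 fold change -1.83 ± 0.06, adjusted p = 5.36e-16). On day 3 the groups overlapped, at -0.03 ± 0.21, adjusted p = 0.95 in Tet3m/m and 0.26 ± 0.24, adjusted p = 0.583 in Tet3-/-.

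Col4a2 was at 19823, 19042 and 26216 normalised counts in Tet3+/+ on day 3, at 17183, 16109.6 and 24068 in Tet3m/m and at 31906 and 22353 in Tet3-/-. Col4a2 with empty vector was at 47507 and 48149.5 normalised counts in Tet3+/+, at 98844 and 85136 in Tet3m/m and at 19415 and 19626 in Tet3-/-. Col4a2 with Dnmt1 was at 45077 and 48194 normalised counts in Tet3+/+, at 78996 and 80619.5 in Tet3m/m and at 21907 and 23583 in Tet3-/-. Col4a2 moved in the same direction as Col4a1, rising in Tet3m/m with empty vector (log2 fold change 0.94 ± 0.05, adjusted p = 5.23e-12) and falling in Tet3-/- (log2 fold change -1.29 ± 0.05, adjusted p = 4.17e-14). The fall in Tet3-/- was smaller than that of Col4a1. Per kb the ratio of Col4a1 to Col4a2 with empty vector was 1.64 to 1.67 in Tet3+/+, 1.71 to 1.75 in Tet3m/m and 1.12 to 1.18 in Tet3-/-. Over the samples of all 3 experiments it stayed between 1.12 and 1.78. Both genes lie on chromosome 8. Its tested genes stood at a median of -0.44 (log2 fold change) in Tet3m/m and -0.37 in Tet3-/- with empty vector, and the 49 nearest to Col4a1 at -0.44 and -0.17. The part of the chromosome in the changes of Col4a1 and Col4a2 was not tested.

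The summed markers of parietal endoderm followed the order of Col4a1 and Col4a2 with empty vector. With empty vector the 10 of 10 listed markers summed to 140865 to 147124 in Tet3+/+, 341717 to 373963 in Tet3m/m and 77630 to 80561 in Tet3-/-, and the visceral endoderm markers to 11551 to 13045, 57667 to 66545 and 795 to 926. On day 3 the parietal sums were 56176 to 71579, 72018 to 93762 and 84740.1 to 87555, and the visceral sums, over 5 of 6 markers, 398 to 749, 1961 to 4328 and 129 to 381. None of either list was at 0 in these groups. The parietal list holds Lama1, Lamb1 and Sparc, which are also basement membrane partners below, so its sum partly counts basement membrane genes. The part of these cells in the results was not tested.

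Col4a5 and Col4a6 are X-linked chains of a second type IV network found in smooth muscle and other basement membranes. In the Dnmt1 experiment they moved the opposite way to Col4a1 and Col4a2. Col4a5 was at 5379, 4648 and 4178 normalised counts in Tet3+/+ on day 3, at 2382, 2298 and 1525 in Tet3m/m and at 5257 and 7290.0 in Tet3-/-. Col4a5 with empty vector was at 1955 and 1882 normalised counts in Tet3+/+, at 281 and 276 in Tet3m/m and at 8139.9 and 8091 in Tet3-/-. Col4a5 with Dnmt1 was at 2706 and 2370.2 normalised counts in Tet3+/+, at 377 and 391 in Tet3m/m and at 6384 and 6699 in Tet3-/-. In both experiments every Tet3m/m sample lay below every Tet3+/+ sample. Col4a5 fell in Tet3m/m on day 3 (log2 fold change -1.21 ± 0.18, adjusted p = 0.00188) and with empty vector (log2 fold change -2.78 ± 0.07, adjusted p = 3.5e-18), and it rose in Tet3-/- with empty vector (log2 fold change 2.08 ± 0.07, adjusted p = 6.5e-16).

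Col4a6 was at 1533, 1799.8 and 1187 normalised counts in Tet3+/+ on day 3, at 764, 760.5 and 401 in Tet3m/m and at 1094 and 1895 in Tet3-/-. Col4a6 with empty vector was at 655 and 562 normalised counts in Tet3+/+, at 99.6 and 88.6 in Tet3m/m and at 2406 and 2567 in Tet3-/-. Col4a6 with Dnmt1 was at 725 and 679 normalised counts in Tet3+/+, at 128 and 104 in Tet3m/m and at 1679.6 and 1599 in Tet3-/-. Col4a6 gave the same order, with a fall in Tet3m/m on day 3 (log2 fold change -1.27 ± 0.28, adjusted p = 0.0126) and with empty vector (log2 fold change -2.68 ± 0.12, adjusted p = 4.21e-14) and a rise in Tet3-/- with empty vector (log2 fold change 2.03 ± 0.12, adjusted p = 6.36e-12). Col4a6 did not pass in Tet3m/m on day 3 without Tet3+/+ replicate 2 (log2 fold change -1.13, adjusted p = 0.0551). Col4a6 did not pass for Tet3-/- against Tet3m/m on day 3 without Tet3-/- replicate 2 (log2 fold change 0.83, adjusted p = 0.177). Per kb Col4a5 over Col4a6 was 2.63 to 4.89 over all samples.

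The promoters of the 2 gene pairs are shown because in the Dnmt1 experiment the pairs moved in opposite directions while the genes within each pair moved in the same direction. On day 3 Col4a1 and Col4a2 were not called. With empty vector in the Tet3-CD experiment, with 1 sample per group, both pairs were lower in Tet3-/- than in Tet3+/+. The log2 ratios there were -1.87 for Col4a1, -1.64 for Col4a2, -0.55 for Col4a5 and -0.50 for Col4a6. For Tet3m/m over Tet3+/+ they were -2.52 for Col4a1, -2.28 for Col4a2, -0.37 for Col4a5 and 0.03 for Col4a6. The fall of Col4a6 in Tet3m/m was thus not seen in that experiment. Sequence source, strand and capitals are as for Col3a1. Col4a1 (chr8:11312777-11313076, minus strand) and Col4a2 (chr8:11312555-11312854, plus strand) start 21 bp apart on opposite strands, so their windows share 78 bases, and hold 37 and 33 CpG. Col4a5 (chrX:141475169-141475468, plus strand) and Col4a6 (chrX:141474027-141474326, minus strand) start 1343 bp apart and hold 11 and 3 CpG. The median over all promoters is 7 CpG and that over the collagen windows is 12.
Col4a1: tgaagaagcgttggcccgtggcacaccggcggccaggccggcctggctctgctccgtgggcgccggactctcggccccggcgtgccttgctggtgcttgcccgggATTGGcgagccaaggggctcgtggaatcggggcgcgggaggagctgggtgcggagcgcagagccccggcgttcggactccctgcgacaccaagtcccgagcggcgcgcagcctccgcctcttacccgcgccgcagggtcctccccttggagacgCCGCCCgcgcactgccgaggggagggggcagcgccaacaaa
Col4a2: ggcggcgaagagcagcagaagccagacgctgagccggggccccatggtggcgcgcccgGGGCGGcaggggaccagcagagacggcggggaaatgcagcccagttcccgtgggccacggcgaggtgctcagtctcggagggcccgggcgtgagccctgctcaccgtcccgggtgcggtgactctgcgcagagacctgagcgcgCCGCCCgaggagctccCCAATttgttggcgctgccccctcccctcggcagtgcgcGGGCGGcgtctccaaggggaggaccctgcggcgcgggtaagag
Col4a5: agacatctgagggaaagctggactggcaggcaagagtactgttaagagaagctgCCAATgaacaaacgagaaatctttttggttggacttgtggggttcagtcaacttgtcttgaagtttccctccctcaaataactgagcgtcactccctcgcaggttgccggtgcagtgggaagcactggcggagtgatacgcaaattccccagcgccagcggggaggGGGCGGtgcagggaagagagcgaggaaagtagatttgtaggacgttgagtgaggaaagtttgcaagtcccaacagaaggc
Col4a6: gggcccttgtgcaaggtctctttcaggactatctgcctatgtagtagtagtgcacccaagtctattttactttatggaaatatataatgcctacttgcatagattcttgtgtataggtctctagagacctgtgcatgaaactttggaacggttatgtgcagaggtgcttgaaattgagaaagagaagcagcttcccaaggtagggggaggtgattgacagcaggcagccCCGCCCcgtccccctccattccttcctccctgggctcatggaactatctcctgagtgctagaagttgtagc

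Col18a1 was at 67651, 68119 and 60660.1 normalised counts in Tet3+/+ on day 3, at 79554, 94902 and 99338 in Tet3m/m and at 65196 and 69673 in Tet3-/-. Col18a1 in the Dnmt1 experiment was at 74355 and 71136 normalised counts with empty vector and 59216 and 59164 with Dnmt1 in Tet3+/+, at 71265 and 68591 with empty vector and 68950.4 and 67765 with Dnmt1 in Tet3m/m, and at 76397 and 75649 with empty vector and 75051 and 78272 with Dnmt1 in Tet3-/-. Col18a1 was called in no comparison of genotypes or vectors, with log2 fold changes of 0.47 ± 0.11, adjusted p = 0.0189 in Tet3m/m on day 3 and -0.06 ± 0.04, adjusted p = 0.258 with empty vector. Col7a1 encodes the anchoring fibril of skin. Col7a1 was at 1037, 706 and 872 normalised counts in Tet3+/+ on day 3, at 1366, 1269.7 and 1147 in Tet3m/m and at 1224 and 2628 in Tet3-/-. Col7a1 in the Dnmt1 experiment was at 751 and 670.2 normalised counts with empty vector and 625 and 641 with Dnmt1 in Tet3+/+, at 645 and 569 with empty vector and 472 and 562 with Dnmt1 in Tet3m/m, and at 1583 and 1374 with empty vector and 1642 and 1971 with Dnmt1 in Tet3-/-. Col7a1 rose in Tet3-/- with empty vector (log2 fold change 1.06 ± 0.11, adjusted p = 4.63e-08). Col15a1 was at 11.6, 28 and 25.7 normalised counts in Tet3+/+ on day 3, at 20.5, 15.2 and 4.07 in Tet3m/m and at 8.48 and 12.5 in Tet3-/-. Col15a1 in the Dnmt1 experiment was at 13.8 and 9.28 normalised counts with empty vector and 12.8 and 12.1 with Dnmt1 in Tet3+/+, at 43.9 and 40.4 with empty vector and 27.7 and 39.8 with Dnmt1 in Tet3m/m, and at 17.9 and 14.8 with empty vector and 9.65 and 21.4 with Dnmt1 in Tet3-/-. Col15a1, a multiplexin like Col18a1, rose in Tet3m/m with empty vector from very low counts (log2 fold change 1.80 ± 0.48, adjusted p = 0.00414) and was lower in Tet3-/- than in Tet3m/m (log2 fold change -1.32 ± 0.48, adjusted p = 0.0215). Col15a1 did not pass in the second contrast without EV Tet3m/m replicate 1, EV Tet3m/m replicate 2 or EV Tet3-/- replicate 2 (log2 fold change -1.38 to -1.19, adjusted p from 0.0615 to 0.0934). Col4a3 and Col4a4, the chains of the kidney filter, were at 5.67 to 82.7 and 10.7 to 96.5 normalised counts and called in no comparison.

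**Figure D4:**
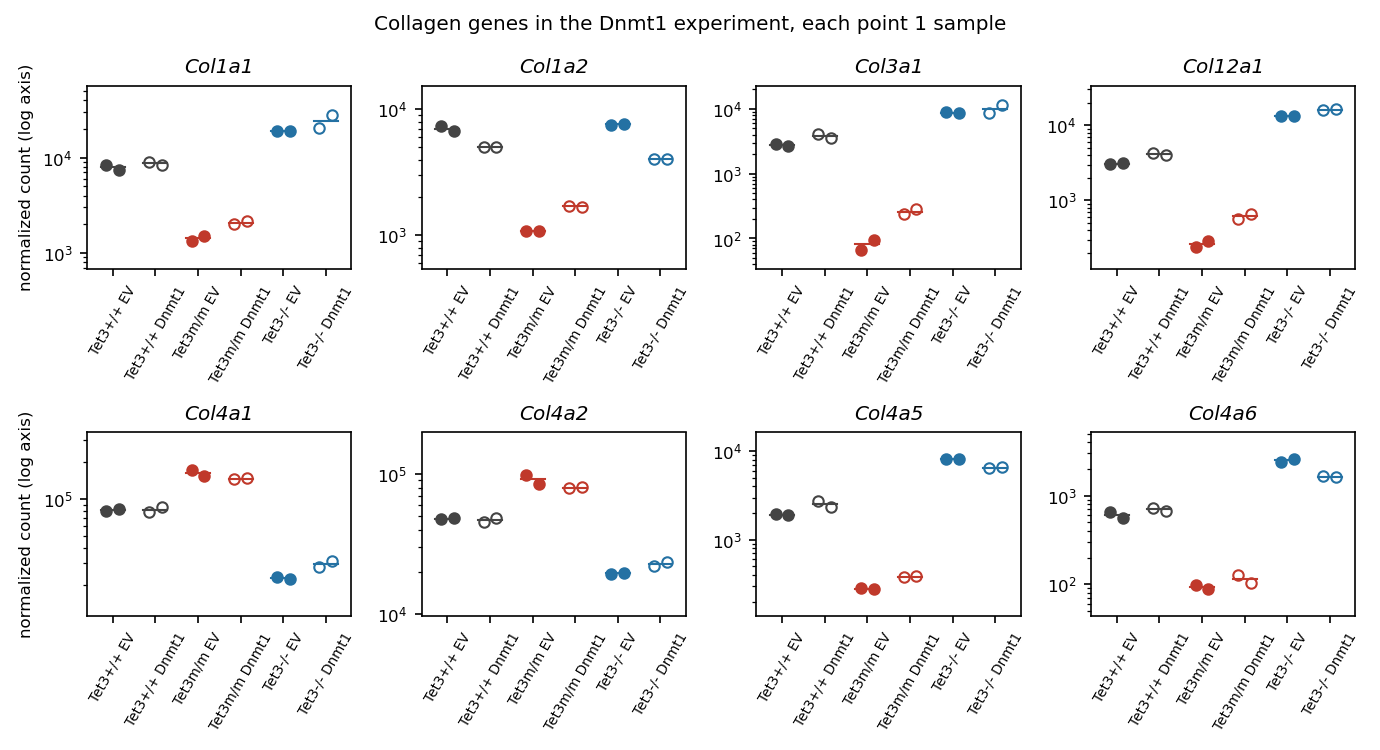
Normalised counts (log axis, its range differing between panels) of 8 collagen genes in each of the 12 samples of the Dnmt1 experiment, with 1 point per sample (filled with empty vector, EV, open with Dnmt1) and a line at the group mean. Col4a1 and Col4a2 are highest in Tet3m/m and lowest in Tet3-/-, and Col3a1, Col12a1, Col4a5 and Col4a6 run the other way.

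Col6a1 and Col6a2 encode the short chains of type VI collagen. Col6a1 was at 642, 622 and 583 normalised counts in Tet3+/+ on day 3, at 1047, 1035 and 753 in Tet3m/m and at 656 and 850.5 in Tet3-/-. Col6a1 in the Dnmt1 experiment was at 1069 and 982 normalised counts with empty vector and 835 and 757 with Dnmt1 in Tet3+/+, at 433 and 497 with empty vector and 401 and 414 with Dnmt1 in Tet3m/m, and at 936 and 881 with empty vector and 899.7 and 934 with Dnmt1 in Tet3-/-. Col6a1 rose in Tet3m/m on day 3 (log2 fold change 0.60 ± 0.16, adjusted p = 0.0291) and fell there with empty vector (log2 fold change -1.14 ± 0.09, adjusted p = 1.71e-09). Col6a1 did not pass on day 3 without Tet3+/+ replicate 1, Tet3+/+ replicate 2, Tet3+/+ replicate 3, Tet3m/m replicate 1 or Tet3m/m replicate 2 (log2 fold change 0.52 to 0.63, adjusted p from 0.0721 to 0.11). Col6a2 was at 347, 368 and 340.0 normalised counts in Tet3+/+ on day 3, at 487, 834 and 542 in Tet3m/m and at 314 and 343 in Tet3-/-. Col6a2 in the Dnmt1 experiment was at 772 and 661 normalised counts with empty vector and 573 and 492 with Dnmt1 in Tet3+/+, at 517 and 500.1 with empty vector and 378 and 305 with Dnmt1 in Tet3m/m, and at 512 and 505 with empty vector and 469.5 and 390.3 with Dnmt1 in Tet3-/-. Col6a2 rose in Tet3m/m on day 3 (log2 fold change 0.78 ± 0.19, adjusted p = 0.024) and was lower in Tet3-/- than in Tet3m/m (log2 fold change -0.88 ± 0.22, adjusted p = 0.0265). Col6a2 did not pass in the first contrast without Tet3+/+ replicate 1, Tet3+/+ replicate 2, Tet3+/+ replicate 3 or Tet3m/m replicate 2 (log2 fold change 0.55 to 0.81, adjusted p from 0.06 to 0.0821). Col6a2 did not pass in the second contrast without Tet3m/m replicate 2, Tet3-/- replicate 1 or Tet3-/- replicate 2 (log2 fold change -0.94 to -0.64, adjusted p from 0.0662 to 0.118).

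The remaining type VI genes were at low counts. Col6a4 was at 1.93, 1.87 and 9.88 normalised counts in Tet3+/+ on day 3, at 37.9, 38.8 and 21.4 in Tet3m/m and at 39.2 and 22.8 in Tet3-/-. Col6a4 in the Dnmt1 experiment was at 33.6 and 26.7 normalised counts with empty vector and 12.8 and 20.1 with Dnmt1 in Tet3+/+, at 46.6 and 54.7 with empty vector and 43.8 and 62.4 with Dnmt1 in Tet3m/m, and at 17.1 and 11.6 with empty vector and 11.3 and 11.9 with Dnmt1 in Tet3-/-. Col6a4 rose in Tet3m/m on day 3 (log2 fold change 2.86 ± 0.63, adjusted p = 0.0137) and fell in Tet3-/- with empty vector (log2 fold change -1.03 ± 0.42, adjusted p = 0.0459). Col6a4 did not pass on day 3 without Tet3m/m replicate 2 (log2 fold change 2.71, adjusted p = 0.0587). Col6a4 did not pass with empty vector without EV Tet3+/+ replicate a, EV Tet3+/+ replicate b, EV Tet3m/m replicate 1, EV Tet3m/m replicate 2, EV Tet3-/- replicate 2, Dnmt1 Tet3m/m replicate 1 or Dnmt1 Tet3m/m replicate 2 (log2 fold change -1.2 to -0.78, adjusted p from 0.0528 to 0.225). Nor did it pass there with edgeR, DESeq2, a pseudocount of 0.1 or only the compared groups (adjusted p from 0.0511 to 0.071), so that the call was lost in 11 of 20 alternatives. Col6a3 was at 48.2, 20.5 and 17.8 normalised counts in Tet3+/+ on day 3, at 34.8, 43.8 and 14.3 in Tet3m/m and at 29.7 and 34.2 in Tet3-/-. Col6a3 in the Dnmt1 experiment was at 13.8 and 4.64 normalised counts with empty vector and 12.8 and 12.1 with Dnmt1 in Tet3+/+, at 23.8 and 26.0 with empty vector and 17.9 and 36.4 with Dnmt1 in Tet3m/m, and at 16.2 and 19.0 with empty vector and 45.8 and 26.2 with Dnmt1 in Tet3-/-. Col6a3 rose in Tet3m/m with empty vector (log2 fold change 1.5 ± 0.53, adjusted p = 0.0259). Col6a3 did not pass without EV Tet3+/+ replicate b, EV Tet3m/m replicate 1 or EV Tet3m/m replicate 2 (log2 fold change 0.80 to 1.56, adjusted p from 0.073 to 0.311). It also did not pass with edgeR or DESeq2 on recovered reads (adjusted p = 0.0586 and 0.0673). Col6a5 in the Dnmt1 experiment was at 16.8 and 25.5 normalised counts with empty vector and 18.1 and 23.2 with Dnmt1 in Tet3+/+, at 34.7 and 44.3 with empty vector and 41.1 and 34.7 with Dnmt1 in Tet3m/m, and at 3.25 and 2.12 with empty vector and 0 and 7.14 with Dnmt1 in Tet3-/-. Col6a5 fell in Tet3-/- with empty vector (adjusted p = 0.00445), where it was at 3.25 and 2.12 normalised counts, too few for a fold, and it did not pass with a pseudocount of 0.1 (adjusted p = 0.0611). With counts this low, fitted changes depend on the 1 added before the log2.

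Of the network-forming and related chains, Col10a1 encodes the hallmark collagen of hypertrophic cartilage. Col10a1 was at 71.3, 67.2 and 31.6 normalised counts in Tet3+/+ on day 3, at 9.22, 37.1 and 6.11 in Tet3m/m and at 108 and 247 in Tet3-/-. Col10a1 in the Dnmt1 experiment was at 2.96 and 0 normalised counts with empty vector and 3.19 and 3.02 with Dnmt1 in Tet3+/+, at 1.83 and 0 with empty vector and 0 and 3.47 with Dnmt1 in Tet3m/m, and at 11.4 and 29.6 with empty vector and 55.5 and 21.4 with Dnmt1 in Tet3-/-. Col10a1 was higher in Tet3-/- than in Tet3m/m on day 3 (log2 fold change 3.55 ± 0.70, adjusted p = 0.0094) and rose in Tet3-/- with empty vector (adjusted p = 0.00813), where Tet3+/+ had too few counts for a fold. Col10a1 did not pass on day 3 without Tet3-/- replicate 2 (log2 fold change 2.96, adjusted p = 0.0715). Col10a1 did not pass with empty vector without EV Tet3+/+ replicate b (adjusted p = 0.106). Col8a1 was at 651, 504 and 486 normalised counts in Tet3+/+ on day 3, at 526, 399.6 and 209.8 in Tet3m/m and at 903 and 988 in Tet3-/-. Col8a1 in the Dnmt1 experiment was at 765 and 654 normalised counts with empty vector and 437 and 479 with Dnmt1 in Tet3+/+, at 96.0 and 117 with empty vector and 115 and 142 with Dnmt1 in Tet3m/m, and at 807 and 814 with empty vector and 752 and 912 with Dnmt1 in Tet3-/-. Col8a1, a chain of the endothelial network collagen, fell in Tet3m/m with empty vector (log2 fold change -2.73 ± 0.14, adjusted p = 7.53e-13) and was higher in Tet3-/- than in Tet3m/m on day 3 (log2 fold change 1.42 ± 0.31, adjusted p = 0.0163). Col8a1 did not pass on day 3 without Tet3-/- replicate 1 or Tet3-/- replicate 2 (log2 fold change 1.35 to 1.48, adjusted p from 0.0639 to 0.0782).

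Col26a1 was at 764, 992 and 577 normalised counts in Tet3+/+ on day 3, at 216, 435 and 412 in Tet3m/m and at 353 and 627 in Tet3-/-. Col26a1 in the Dnmt1 experiment was at 1302 and 1136 normalised counts with empty vector and 1157 and 1162 with Dnmt1 in Tet3+/+, at 218 and 245 with empty vector and 347 and 313 with Dnmt1 in Tet3m/m, and at 897 and 860.2 with empty vector and 552 and 483 with Dnmt1 in Tet3-/-. Col26a1 fell in Tet3m/m on day 3 (log2 fold change -1.16 ± 0.31, adjusted p = 0.0296) and with empty vector (log2 fold change -2.39 ± 0.10, adjusted p = 4.78e-14), and Tet3m/m did not overlap Tet3+/+ in either, while the Tet3-/- samples of day 3 overlapped both. Col26a1 did not pass on day 3 without Tet3+/+ replicate 1, Tet3+/+ replicate 2 or Tet3m/m replicate 1 (log2 fold change -1.16 to -0.84, adjusted p from 0.0727 to 0.115). Col8a2 was at 59.4 to 487 normalised counts and called in no comparison.

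Of the 4 transmembrane collagens, Col13a1, found at cell junctions and the neuromuscular synapse, and Col17a1, a hemidesmosome component, were called. Col13a1 was at 145, 126 and 134 normalised counts in Tet3+/+ on day 3, at 136, 219 and 293 in Tet3m/m and at 119 and 153 in Tet3-/-. Col13a1 in the Dnmt1 experiment was at 259.8 and 183 normalised counts with empty vector and 192 and 171 with Dnmt1 in Tet3+/+, at 607 and 537 with empty vector and 513 and 559 with Dnmt1 in Tet3m/m, and at 151 and 129 with empty vector and 144 and 100 with Dnmt1 in Tet3-/-. Col13a1 rose in Tet3m/m with empty vector (log2 fold change 1.38 ± 0.18, adjusted p = 2.21e-06) and fell in Tet3-/- (log2 fold change -0.64 ± 0.18, adjusted p = 0.00607). Col13a1 did not pass in Tet3-/- without EV Tet3+/+ replicate a or EV Tet3-/- replicate 2 (log2 fold change -0.53 to -0.39, adjusted p from 0.0637 to 0.147). Col17a1 was at 17.3, 29.9 and 9.88 normalised counts in Tet3+/+ on day 3, at 23.6, 32.9 and 60.1 in Tet3m/m and at 19.1 and 9.11 in Tet3-/-. Col17a1 in the Dnmt1 experiment was at 106 and 67.3 normalised counts with empty vector and 69.2 and 83.6 with Dnmt1 in Tet3+/+, at 111 and 141 with empty vector and 64.4 and 69.3 with Dnmt1 in Tet3m/m, and at 22.7 and 29.6 with empty vector and 20.1 and 29.8 with Dnmt1 in Tet3-/-. Col17a1 fell in Tet3-/- with empty vector (log2 fold change -1.66 ± 0.31, adjusted p = 0.000133). Col23a1 and Col25a1 were at 76.3 to 270 and 18.8 to 165 normalised counts and called in no comparison, as was the FACIT gene Col22a1 at 205 to 709.

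The day 3 and empty-vector comparisons use separate samples and can be set side by side. In Tet3m/m against Tet3+/+, 23 of 39 collagen genes (59.0%) had the same sign in both, against 66.8% of all genes. The 5 genes called in both make up 55.6% of the 9 day 3 calls and 22.7% of the 22 empty-vector calls, close to the 54.4% and 26.2% over all genes. Of the 5, 4 had the same direction, the exception being Col6a1, and over all genes 921 of 977 did. In Tet3-/- against Tet3m/m, 27 of 39 (69.2%, against 70.5% of all genes) had the same sign, and 10 of 11 genes called in both had the same direction, as did 1351 of 1387 over all genes.

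Forced expression of Dnmt1 was compared with empty vector within each genotype. In Tet3+/+ it gave 2 calls of 40, where 1.17% of all genes tested were called (0.421% higher, 0.753% lower), namely Col14a1, which rose (log2 fold change 0.95 ± 0.12, adjusted p = 0.000102), and Col8a1, which fell (log2 fold change -0.63 ± 0.14, adjusted p = 0.0101). Col8a1 did not pass in Tet3+/+ without EV Tet3+/+ replicate a or Dnmt1 Tet3+/+ replicate 1 (log2 fold change -0.56 to -0.51, adjusted p from 0.141 to 0.15). In Tet3m/m, 6 of 40 were called, against 2.46% of all genes (1.78% higher, 0.681% lower), and in Tet3-/- 4 of 40, against 3.53% (2.51% higher, 1.02% lower).

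In Tet3m/m the genes that rose with Dnmt1 were Col14a1 (log2 fold change 2.58 ± 0.12, adjusted p = 6.29e-11), Col3a1 (log2 fold change 1.68 ± 0.13, adjusted p = 1.29e-08), Col12a1 (log2 fold change 1.21 ± 0.08, adjusted p = 9.73e-10), Col1a2 (log2 fold change 0.65 ± 0.05, adjusted p = 1.95e-08) and Col2a1 (log2 fold change 0.59 ± 0.04, adjusted p = 7.46e-09). These 5 had all fallen in Tet3m/m with empty vector, and each stayed below the Tet3+/+ samples with Dnmt1, Col3a1 for example at 238 and 282 against 4129 and 3569 normalised counts. Col20a1 fell (log2 fold change -1.08 ± 0.24, adjusted p = 0.0048). Col2a1 did not pass the 1.5-fold threshold without EV Tet3m/m replicate 2 or Dnmt1 Tet3m/m replicate 2 (log2 fold change 0.57 to 0.58, adjusted p from 7.89e-07 to 1.1e-06). Col20a1 did not pass in Tet3m/m without Dnmt1 Tet3m/m replicate 1 (log2 fold change -0.83, adjusted p = 0.101). Both comparisons share the empty-vector Tet3m/m samples.

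In Tet3-/- the 4 calls were all falls with Dnmt1, of Col1a2 (log2 fold change -0.92 ± 0.05, adjusted p = 4.15e-10), Col14a1 (log2 fold change -0.89 ± 0.12, adjusted p = 5.72e-05), Col26a1 (log2 fold change -0.76 ± 0.10, adjusted p = 4.5e-05) and Col4a6 (log2 fold change -0.60 ± 0.12, adjusted p = 0.00135). Col4a6 did not pass the 1.5-fold threshold without EV Tet3-/- replicate 2 or Dnmt1 Tet3-/- replicate 2 (log2 fold change -0.56 to -0.55, adjusted p from 0.0186 to 0.0342). Col1a1 was at 0.32 ± 0.09, adjusted p = 0.0255, so that per kb Col1a1 over Col1a2 was 4.55 to 6.33 with Dnmt1 and 2.26 to 2.28 with empty vector. Col14a1 thus rose with Dnmt1 in Tet3+/+ and Tet3m/m and fell in Tet3-/-.

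The difference between genotypes in the response to Dnmt1 was itself tested as an interaction. The Dnmt1 effect in Tet3m/m exceeded that in Tet3+/+ for 7 of 40 collagen genes, against 1.31% of all genes with an adjusted p under 0.05 (1.08% higher, 0.227% lower), led by Col14a1 (1.63 ± 0.18, adjusted p = 1.66e-05), Col3a1 (1.22 ± 0.18, adjusted p = 0.000552) and Col1a2 (1.13 ± 0.07, adjusted p = 1.64e-08). In Tet3-/- 12 of 40 differed from Tet3+/+, 5 upward and 7 downward, against 9.71% of all genes (5.24% higher, 4.47% lower), led by Col14a1 (-1.84 ± 0.18, adjusted p = 1.11e-06), Col4a6 (-0.81 ± 0.16, adjusted p = 0.00307) and Col5a2 (0.72 ± 0.20, adjusted p = 0.024). Fibroblast marker sums were 1986 to 2097 in Tet3m/m with Dnmt1, above the 1623 to 1769 with empty vector, and 4369 to 4540 in Tet3-/- with Dnmt1. Of these 10 markers, those that rose with Dnmt1 in Tet3m/m included Dcn (log2 fold change 2.03 ± 0.15, adjusted p = 8.44e-09) and Postn, where 1.78% of all genes rose. The value of Postn stands with the small proteoglycans below. The other markers are not given singly for this contrast, nor is the number of the 10 that rose, fell or did not pass. Dcn, Lum and Postn are also on the list of small proteoglycans below, so the lists are not independent. The part of these markers in the rise of the fibrillar genes was not tested.

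**Figure D5:**
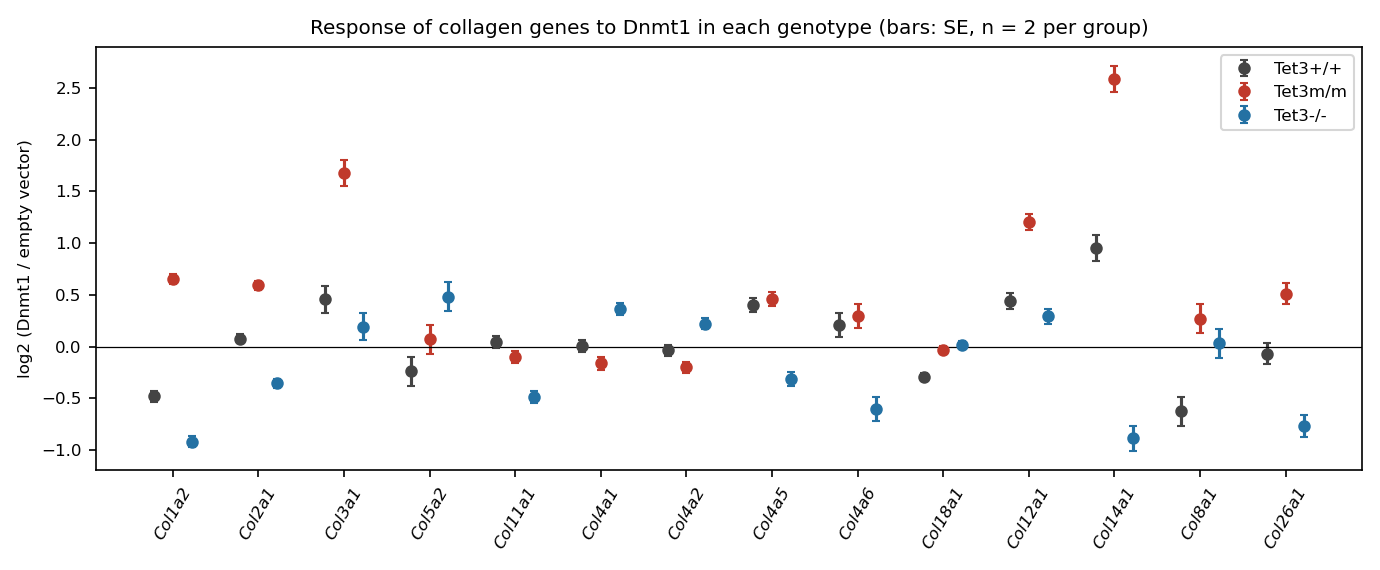
Log2 fold change of Dnmt1 against empty vector in Tet3+/+, Tet3m/m and Tet3-/- cells, with bars of 1 SE and 2 samples per group, for the 14 collagen genes whose response differed between genotypes in the interaction test. Col14a1 lies above 0 in Tet3+/+ and Tet3m/m (0.95 and 2.58) and below 0 in Tet3-/- (-0.89).

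Expression of the TET3 catalytic domain had 1 sample per group and is given as values. With empty vector, the Tet3+/+ sample of this experiment held Col4a1 at 340553 normalised counts, against 59488 in Tet3m/m and 92923 in Tet3-/-, so Tet3m/m lay below Tet3+/+ here and above it with empty vector in the Dnmt1 experiment, while Tet3-/- lay below Tet3+/+ in both. Its parietal endoderm markers summed to 542088, against 132233 and 152136, and its visceral endoderm markers to 30558, against 5871 and 6519. Fibrillar chains made up 16.6% of the collagen level in Tet3-/-, between the shares of Tet3+/+ and Tet3m/m given above. The ratios past 1.5-fold with empty vector were 25 of 40 for Tet3m/m over Tet3+/+, 15 higher and 10 lower (36.3% of all genes, 20.2% higher and 16.1% lower). For Tet3-/- over Tet3+/+ they were 16 of 40, 7 higher and 9 lower (27.1%, 15.4% and 11.7% of all genes). Of the 11 fibrillar chains, 1 was higher and 4 were lower in that ratio. The lower ones included Col3a1 at -0.77 and Col11a1 at -0.70 (log2 ratio), and the FACIT gene Col12a1 was at -1.05. These 3 genes had risen in Tet3-/- with empty vector in the Dnmt1 experiment.

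Tet3-CD over empty vector passed 1.5-fold at 6 of 40 collagen genes in Tet3+/+ (13.4% of all genes), 7 in Tet3m/m (10.1%) and 17 in Tet3-/- (21.5%). In Tet3+/+ all 6 were higher (6.11% of all genes were higher and 7.30% lower). They were Col4a3, Col4a4, Col6a5, Col17a1, Col19a1 and Col20a1. In Tet3m/m 2 were higher and 5 lower (4.58% and 5.53% of all genes), and in Tet3-/- 7 were higher and 10 lower (9.89% and 11.6%). The 6 in Tet3+/+ and the 7 in Tet3m/m were all under 100 normalised counts in both samples compared. Col1a2 was at 2062 with empty vector and 2127 with Tet3-CD in Tet3+/+, 2746 with empty vector and 2816 with Tet3-CD in Tet3m/m, 2854 with empty vector and 1416 with Tet3-CD in Tet3-/-. Col12a1 was at 10434 with empty vector and 14109.8 with Tet3-CD in Tet3+/+, 9256 with empty vector and 9169.7 with Tet3-CD in Tet3m/m, 5033 with empty vector and 11259 with Tet3-CD in Tet3-/-. Col14a1 was at 1865 with empty vector and 2063 with Tet3-CD in Tet3+/+, 872 with empty vector and 997 with Tet3-CD in Tet3m/m, 1046 with empty vector and 465 with Tet3-CD in Tet3-/-. In Tet3-/- the Tet3-CD sample had lower Col1a2 and Col14a1 and higher Col12a1 than the empty-vector sample, and in the other 2 genotypes these 3 genes stayed within 1.5-fold.

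Col4a1 and Col4a2 were lower with Tet3-CD in all 3 genotypes, Col4a1 at 340553 with empty vector and 275538 with Tet3-CD in Tet3+/+, 59489 with empty vector and 51495 with Tet3-CD in Tet3m/m, 92923 with empty vector and 55079.9 with Tet3-CD in Tet3-/-. The summed parietal endoderm markers were lower too, going from 542088 to 460692 in Tet3+/+, from 132233 to 122455 in Tet3m/m and from 152136 to 102381 in Tet3-/-, and their part was not tested. Col3a1 was at 11938 with empty vector and 13397 with Tet3-CD in Tet3+/+, 6954 with empty vector and 6398 with Tet3-CD in Tet3m/m, 7014 with empty vector and 10429 with Tet3-CD in Tet3-/-.

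Genes that act on collagens were read from 6 lists, of folding and modification enzymes, cleavage and cross-linking enzymes, receptors, breakdown enzymes and their inhibitors, basement membrane partners and small proteoglycans. Dcn, Lum and Postn of the small proteoglycan list are also among the fibroblast markers above. Of all genes tested with empty vector, 10.3% rose and 10.9% fell in Tet3m/m, and 11.0% rose and 13.9% fell in Tet3-/-, and list counts are read beside these shares. With empty vector, 7 of 10 small proteoglycans and fibril partners fell in Tet3m/m and none rose, led by Fmod (log2 fold change -3.95 ± 0.71, adjusted p = 8.6e-05), Dcn (log2 fold change -3.31 ± 0.15, adjusted p = 7.07e-14) and Thbs2 (log2 fold change -2.08 ± 0.17, adjusted p = 1.98e-09). In Tet3-/- 5 of 10 rose and 1 fell, with Thbs2 at 1.57 and Thbs1 at 1.24 on the log2 scale and Tnxb at -1.56.

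Of 12 cleavage and cross-linking genes, 3 rose and 3 fell in Tet3m/m with empty vector, among them Pcolce, an enhancer of procollagen cleavage (log2 fold change -2.30 ± 0.08, adjusted p = 4.4e-16), and Loxl3 (log2 fold change -1.92 ± 0.15, adjusted p = 6.06e-10), and 6 rose and 2 fell in Tet3-/-, with Bmp1, the procollagen C-proteinase, at 1.70 and Lox, which cross-links fibrils, at 1.68. Of 18 basement membrane partners, 9 rose and 3 fell in Tet3m/m, among them the laminin gene Lama1 (log2 fold change 1.76 ± 0.09, adjusted p = 7.36e-13) and Nid1, which links laminin to type IV collagen (log2 fold change 1.72 ± 0.07, adjusted p = 9.06e-15), and 4 rose and 4 fell in Tet3-/-, with Lama1 at -2.63. Of 20 folding and modification genes, 6 rose and 1 fell in Tet3m/m, led by the prolyl 4-hydroxylase P4ha2 (log2 fold change 1.22 ± 0.05, adjusted p = 1.02e-14), and 3 rose and 6 fell in Tet3-/-, with P4ha2 at -1.35. Of 9 receptors, 1 rose and 4 fell in Tet3m/m and 4 rose and 1 fell in Tet3-/-, with the collagen receptor Ddr1 at -1.5 and 1.1. Of 9 breakdown genes, 2 rose and 3 fell in Tet3m/m and 5 rose and 2 fell in Tet3-/-, with Mmp2 at -1.99 in Tet3m/m and Mmp16 at 2.73 in Tet3-/-.

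On day 3, fewer partners were called, as were fewer of all genes (5.06% rose and 5.19% fell in Tet3m/m, 0.458% and 0.184% in Tet3-/-). In Tet3m/m against Tet3+/+ the folding list had 2 rises and 1 fall among 20 genes, and the basement membrane list had 5 rises and no fall among 18, with Lama1 at 1.05. In Tet3-/- against Tet3+/+, the basement membrane list had 2 rises, Fn1 (log2 fold change 1.2 ± 0.18, adjusted p = 0.0457) and Nid1 (log2 fold change 1.2 ± 0.20, adjusted p = 0.0464), and the small proteoglycan list had none of 10, although all 10 were higher. With Dnmt1, no partner was called in Tet3+/+, while 4 of 10 small proteoglycans rose in Tet3m/m, where 1.78% of all genes rose, with Fmod at 2.85, Dcn at 2.03 and Postn at 1.53.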

How the data were processed

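RNA-seq values of 26 of 35 samples were used, and the bisulfite, hydroxymethylation and CUT&Tag samples were not analysed here. The deposited signal values are counts that the authors normalised. Reads were trimmed with Trim Galore 0.6.7, aligned with STAR 2.7.9a (the methods name mm39, the submitters' processing notes mm10), assigned to genes with featureCounts and divided by DESeq2 size factors. Each deposited value is a whole multiple of 1 read (within 0.01), so reads were recovered.

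A minimum mean of 10 left 17915 of the 17948 day 3 genes and 18055 of the 18091 genes listed with Dnmt1. log2(value + 1) was fitted with limma 3.58.1 in R 4.3.3 (empirical Bayes trend, all groups of an experiment in 1 fit), with Benjamini-Hochberg adjustment over all genes tested. Fold changes are on this scale, which understates those of low genes, and errors are SE. A call needed a fold above 1.5 besides an adjusted p below 0.05, except for interactions, which needed only the latter. The fit was also run on simulated counts, with the same spread beyond counting error (a dispersion of 0.02) for every gene. That spread was not matched to the real replicates, so the simulation says nothing about calls that turn on single samples.

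Alternatives were other pseudocounts, filters and thresholds, edgeR 4.0.16 and DESeq2 1.42.0 on recovered reads, only the compared groups, replicate blocks and each sample left out. Every collagen gene is reported. Genes called in a replicated comparison, and Col1a1, Col1a2, Col3a1, Col4a1, Col4a2 and Col18a1, have values in every sample of the day 3 and Dnmt1 experiments. For the Tet3-CD experiment, values in every sample are given only for Col1a2, Col3a1, Col4a1, Col12a1 and Col14a1. Of the partner lists, the calls with the largest changes are named. Members and lists were chosen with earlier results of these data known. Transcript lengths and chromosomes are from GENCODE vM21 and promoters from RefSeq, both on GRCm38. Python 3.11.15 drew the plots.

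Counting error limits the precision of genes with few reads, and replicate numbers were not found to pair samples. The pair of Tet3+/+ controls with empty vector beside Dnmt1 is unnumbered in the deposited headers, and its samples are called a and b.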

Additional observations from a re-analysis of the deposited data

Results flagged for a closer look

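The response to Dnmt1 differed between genotypes for 14 collagen genes by limma's interaction test, at an adjusted p under 0.05 over all genes tested. In Tet3m/m the log2 response exceeded that in Tet3+/+ for 7 genes, Col3a1 (1.22), Col1a2 (1.13), Col18a1 (0.26), Col12a1 (0.77), Col14a1 (1.63), Col2a1 (0.52) and Col8a1 (0.90). In Tet3-/- it exceeded that in Tet3+/+ for Col5a2 (0.72), Col18a1 (0.31), Col4a1 (0.36), Col4a2 (0.26) and Col8a1 (0.66), and lay below it for Col4a6 (-0.81), Col4a5 (-0.71), Col11a1 (-0.54), Col26a1 (-0.70), Col1a2 (-0.44), Col14a1 (-1.84) and Col2a1 (-0.43). Col14a1, Col1a2 and Col2a1 differed from Tet3+/+ upward in Tet3m/m and downward in Tet3-/-, while Col18a1 and Col8a1 differed upward in both. Each group holds 2 samples, both tests share the Tet3+/+ samples, and the differences of Col18a1, Col4a1, Col4a2, Col2a1 and Col11a1, and that of Col1a2 in Tet3-/-, are under 1.5-fold.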

How the results depend on the processing

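Over 137 pairs of a collagen gene and a comparison, 2800 refits kept direction and side of the threshold in 2685 cases, lost a call in 77, gained one in 26 and turned direction in 12. The 12 all concern uncalled changes near 0 with 1 sample left out, where log2 fold changes ranged from -0.14 to 0.20 for Col1a2 and from -0.24 to 0.17 for Col4a1 in Tet3m/m on day 3, from -0.010 to 0.092 for Col18a1 in Tet3-/- on day 3, from -0.058 to 0.072 for Col4a1 and -0.085 to 0.011 for Col4a2 with Dnmt1 in Tet3+/+, and from -0.019 to 0.042 for Col18a1 with Dnmt1 in Tet3-/-. Collagen genes called with 1 sample left out numbered 3 to 13 in Tet3m/m against Tet3+/+, 0 to 6 in Tet3-/- against Tet3+/+ and 7 to 14 in Tet3-/- against Tet3m/m on day 3, and 1 to 4 with Dnmt1 in Tet3+/+. Where an arm was left with 1 sample, it was assumed to vary like the other groups. For Tet3-/- against Tet3+/+ on day 3, where limma called none, DESeq2 called 5 and a fit of only these groups 6. With no fold threshold, Dnmt1 called 9 in Tet3+/+, 12 in Tet3m/m and 12 in Tet3-/-. Past 2-fold instead of 1.5-fold, Tet3-CD over empty vector counted 2, 4 and 8 in Tet3+/+, Tet3m/m and Tet3-/-, and with empty vector Tet3-/- counted 9 over Tet3+/+ and 11 over Tet3m/m. These counts stand without the share of all genes in the same fit, so they show only how the collagen count moved. The cause of these moves was not tested beyond the sample or threshold named.

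Samples share only a replicate number. Correlations of same-numbered samples' deviations lay between -0.098 and 0.082 on day 3. With the replicate block, 12, 0 and 13 genes were called on day 3 (Tet3m/m and Tet3-/- against Tet3+/+, and Tet3-/- against Tet3m/m), 28 for Tet3-/- against Tet3m/m with empty vector, and 6 and 4 with Dnmt1 in Tet3m/m and Tet3-/-. The blocked counts too stand without the share of all genes. Comparisons with the empty-vector Tet3+/+ samples could not be blocked, as these carry no distinct numbers.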
